A study of Gallus gallus with 4 samples.

Results

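The let-7 microRNA family was represented on the array by 18 probes under 9 chicken names, gga-let-7a, gga-let-7b, gga-let-7c, gga-let-7d, gga-let-7f, gga-let-7g, gga-let-7i, gga-let-7j and gga-let-7k, with 2 probes per name. The members were all non-control probes whose systematic name begins with gga-let-7. They were 18 of 42034 non-control probes and 18 of 244 probes that carry a microRNA name. RNA was taken from DT40, a B lymphoma line derived from the chicken bursa of Fabricius, in 4 groups of 1 culture and 1 array each. These were DT40 stably expressing OsTIR1 given 500 µM indole-3-acetic acid (IAA, the natural auxin) for 6 h, the same line untreated, parental DT40 given 500 µM IAA for 6 h, and parental DT40 untreated. OsTIR1 is the rice F-box protein that serves as an auxin receptor in plants, and the study asked whether auxin switches on a particular set of genes in animal cells. All cultures grew at 38.5 °C. The promoter of the OsTIR1 transgene, the number of clones behind the line and any solvent given to the untreated cultures are not given in the sources used here. With no second culture in any group, a difference between 2 arrays has no replicate check.

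A let-7 microRNA is made from a long primary transcript that Drosha and then Dicer cut into a short mature strand, which guides Argonaute proteins to messenger RNAs that match its seed. The family was found in Caenorhabditis elegans, where it times larval development. In mammals it rises as cells differentiate, is held back in embryonic cells by the RNA-binding protein LIN28, and represses growth genes such as those of the RAS family, MYC and HMGA2. Members of the family share a seed and differ in few bases of the mature strand, so probes that read this strand could bind one another's RNA. The sources used here do not give the probe sequences, so whether a probe reads the mature strand, the hairpin or the primary transcript is unknown.

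Several let-7 genes lie side by side. In RefSeq's chicken assembly GRCg7b, used here for names and neighbours alone, 11 loci carry a let-7 name. The loci of gga-let-7a-3 and gga-let-7b are neighbours within 10000 bases, as are those of gga-let-7d, gga-let-7f and gga-let-7a-1, and those of gga-let-7j and gga-let-7k. RefSeq places gga-let-7c beside mir-99a and gga-let-7a-2 beside mir-100, while gga-let-7g and gga-let-7i have no let-7 neighbour. The name gga-let-7a covers 3 loci, and which of them its probes read is unknown.

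All 18 let-7 probes were well above background on all 4 arrays, by the scanner software's own flag. Of the 42034 probes, from 20086 to 24359 per array carried that flag, and 19436 carried it on all 4. The let-7 probes had 275 to 573 intensity units (median 336) in the OsTIR1 line with IAA and 276 to 600.3 (median 341) in the OsTIR1 line untreated. They had 275 to 541 (median 331) in parental DT40 with IAA and 264 to 537 (median 326) in parental DT40 untreated. The family thus gave moderate, nearly equal brightness in every culture. The lowest intensity flagged as well above background was between 5.71 and 14.3 units on these arrays, so every let-7 spot lay far above it.

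This brightness was not particular to let-7. All 226 other microRNA probes, under 109 names, were also well above background on every array, at 69.7 to 3323 units. The microRNAs known in vertebrates for other tissues were among them. A list of 15 such names, put together with the values known, holds mir-1, mir-133 and mir-206 of muscle, mir-122a of liver, mir-124 of neurons, mir-375 of endocrine cells, and mir-302 and mir-367 of the early embryo. All 34 of their probes were above background on all arrays, with a median of 303 units against 337 for let-7 (each probe first averaged over the arrays). Their values ran from 174 to 3323 units. Probes A_87_P008466 and A_87_P008467 of gga-mir-302c had 2967 and 3226 units in the OsTIR1 line with IAA. Probes A_87_P008464 and A_87_P008465 of the same name had 282 and 251 there. Probe A_87_P008497 of gga-mir-122a, for example, had 274 and 287 units in the OsTIR1 line with and without IAA and 249 and 242 units in parental DT40 with and without IAA. Its partner A_87_P008496 was dimmer in untreated parental DT40, at 185 units. It had 240 and 261 units in the OsTIR1 line with and without IAA and 245 in parental DT40 with IAA. The part that binding of other RNA plays in these values was not tested. A spot's brightness also depends on the probe's own sequence, so the levels below compare arrays for 1 probe and do not rank let-7 members by abundance.

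Levels were put on a common scale as log2 intensity minus each array's 75th percentile, which stood at 168 units in the OsTIR1 line with IAA, 171 in that line untreated, 168 in parental DT40 with IAA and 177 in parental DT40 untreated. On this scale a let-7 probe averaged between 0.67 and 1.72 over the arrays, so the whole family sat above that percentile, with a median of 0.98. Other microRNA probes had a median level of 1.07 and all 42034 probes one of -3.79. The range of a probe over the 4 arrays was 0.03 to 0.22 on the log2 scale (median 0.15), which is 1.02-fold to 1.16-fold. Other microRNA probes had a median range of 0.16, and all 19436 probes above background everywhere had one of 0.23. No let-7 probe reached 2-fold between any 2 arrays, while 484 of the 19436 did (2.49%).

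The intensities that follow are as deposited, and every statement on which culture is higher or lower refers to the scaled levels, since the untreated parental array has the highest percentile. In the cluster of gga-let-7d, gga-let-7f and gga-let-7a-1, probe A_87_P008554 of gga-let-7d had 564 units in the OsTIR1 line with IAA, 535 in that line untreated, 540.5 in parental DT40 with IAA and 516 in parental DT40 untreated. Its partner A_87_P008555 had 549, 527, 536 and 508 units in the same order of cultures. Both gga-let-7d probes were thus highest in the OsTIR1 line with IAA and lowest in untreated parental cells. Probe A_87_P008552 of gga-let-7f had 275 units in the OsTIR1 line with IAA, 276 in the OsTIR1 line untreated, 275 in parental DT40 with IAA and 264 in parental DT40 untreated. Its partner A_87_P008553 had 284, 295, 298 and 296 units in that order. After scaling, both gga-let-7f probes were lowest in untreated parental cells, the first was highest in the OsTIR1 line with IAA and the second in parental DT40 with IAA.

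Probe A_87_P008670 of gga-let-7a had 307 and 286 units in the OsTIR1 line with and without IAA, against 305 and 295 units in parental DT40 with and without IAA. Its partner A_87_P008671 had 315 and 318 units in the OsTIR1 line and 314 and 322 units in parental DT40, likewise with and without IAA. Both probes were higher with IAA in both lines after scaling, though the unscaled units of the second were lower with IAA. The second spanned 0.04 on the log2 scale over all cultures.

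For gga-let-7b, probe A_87_P008668 had 351 and 355 units in the OsTIR1 line with and without IAA and 357 and 323 in parental DT40 with and without IAA. Its partner A_87_P008669 had 336 and 354 units in the OsTIR1 line and 312 and 340.2 in parental DT40. In parental cells the 2 gga-let-7b probes thus went opposite ways with IAA. Probe A_87_P008512 of gga-let-7k had 319 and 317 units in the OsTIR1 line with and without IAA and 305 and 289 in parental DT40 with and without IAA. Its partner A_87_P008513 had 311 and 313 units in the OsTIR1 line and 311 and 329 in parental DT40. It had the smallest range of the 18 probes, 0.03 on the log2 scale. For its neighbour gga-let-7j, probe A_87_P008514 had 352 and 336 units in the OsTIR1 line with and without IAA and 343 and 334 in parental DT40 with and without IAA. Its partner A_87_P008515 had 295 and 306 units in the OsTIR1 line and 290.2 and 278 in parental DT40. Both gga-let-7j probes were lowest in untreated parental DT40.

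Away from let-7 clusters, probe A_87_P008556 of gga-let-7g had 456 and 473 units in the OsTIR1 line with and without IAA and 447 and 418 in parental DT40 with and without IAA. This was the widest range in the family, 0.22 on the log2 scale, with both OsTIR1 cultures above both parental ones. Its partner A_87_P008557 had 464 and 470.5 units in the OsTIR1 line and 465 and 447 in parental DT40. Probe A_87_P008677 of gga-let-7i had 573 and 600.3 units in the OsTIR1 line with and without IAA, against 541 and 537 in parental DT40 with and without IAA. Its partner A_87_P008676 had 543 and 543 units in the OsTIR1 line and 531 and 532 in parental DT40. Both gga-let-7i probes had both OsTIR1 arrays above both parental ones. Probe A_87_P008666 of gga-let-7c had 336 and 345 units in the OsTIR1 line with and without IAA and 348 and 322 in parental DT40 with and without IAA. Its partner A_87_P008667 had 321 and 322 units in the OsTIR1 line and 318 and 311 in parental DT40. Both gga-let-7c probes were lowest in untreated parental cells.

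The 2 probes of a name agreed closely in brightness. Averaged over the arrays, their gap was 0.02 to 0.22 on the log2 scale (median 0.07), at most 1.17-fold, beside a median of 0.07 over the 105 other microRNA names with 2 probes. The widest gap was that of gga-let-7j and the narrowest that of gga-let-7d. In 6 of the 9 names the same probe was the brighter one on all 4 arrays. After normexp background correction of the raw spot medians with quantile normalization, the gap changed sign in 6 of the 9 names. Which probe of a pair is brighter thus depended on the processing. That setting differs in spot summary, background step and normalization together, and which of them moved the gaps was not tested.

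In differences between cultures the 2 probes of a name agreed less. With IAA in the OsTIR1 line, both probes had the same sign in 3 of 9 names, and with IAA in parental DT40 in 7 of 9. For the OsTIR1 line against parental DT40 the signs matched in 4 of 9 names with IAA and in 7 of 9 without it. Of 226 other microRNA probes, 202 were higher with IAA in parental DT40 and 203 in the line comparison without IAA. In the OsTIR1 line 125 were higher with IAA, and 127 in the line comparison with IAA. Where most microRNA probes lean upward, signs match more often whatever the name. The share of matching names among other microRNAs is not given here. Partners differed from each other by a median of 0.05 in each comparison except the line comparison without IAA, where this was 0.08. The widest disagreement was that of gga-let-7b with IAA in parental DT40, 0.21 for one probe and -0.05 for the other. A disagreement is an absolute value per name, while the let-7 median is taken over signed differences of single probes, where opposite signs cancel. The 2 are thus unlike measures. The median disagreement exceeded the median let-7 difference for IAA in the OsTIR1 line (0.05 against 0.02) and for the line comparison with IAA (0.05 against 0.02). It was smaller than the median difference for IAA in parental DT40 (0.05 against 0.12) and for the line comparison without IAA (0.08 against 0.10).

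IAA in the OsTIR1 line left the let-7 probes near their untreated levels. The IAA difference ran from -0.05 to 0.13 on the log2 scale with a median of 0.02, and 12 of 18 probes were higher, where 49.1% of 22873 measured probes were. Of the other microRNA probes 55.3% were higher. None of the 18 was 2-fold apart, against 0.337% of the measured probes, and none was 1.5-fold apart, against 2.19%. The highest were gga-let-7a probe A_87_P008670 at 0.13 (nominal 95% interval -0.27 to 0.53) and both gga-let-7d probes at 0.10 and 0.09. The interval comes from the scanner software's error estimate of the 2 spots and covers no variation between cultures. Its half-width was 0.400 to 0.402 for every let-7 probe in every comparison, wider than any let-7 difference. It was thus nearly the same whatever the probe or array. It serves as a fixed allowance, and a difference lying within it is no test of that difference.

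IAA in parental DT40 went with slightly higher let-7 values, by less than that nearly constant half-width. The difference ran from -0.05 to 0.21 with a median of 0.12, and 16 of 18 probes were higher, where 47.8% of 19492 measured probes were. Probe A_87_P008668 of gga-let-7b stood at 0.21 (-0.19 to 0.62), A_87_P008666 of gga-let-7c at 0.18 (-0.22 to 0.59) and A_87_P008556 of gga-let-7g at 0.17 (-0.24 to 0.57). Other microRNA probes moved along, with a median of 0.11 and 202 of 226 higher. None of the let-7 probes was 2-fold apart (0.472% of measured probes were) or 1.5-fold apart (1.91%). Between the lines, the IAA difference in the OsTIR1 line minus that in parental DT40 ran from -0.20 to 0.03 with a median of -0.09. In 6 of 18 probes the 2 differences had opposite signs, and with 1 array per group this was not tested. Other microRNA probes had a median IAA difference of 0.01 in the OsTIR1 line and 0.11 in parental DT40, so the contrast was not particular to let-7. The share of other probes with opposite signs is not given here.

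The OsTIR1 line and parental DT40 had like let-7 values with IAA and slightly apart ones without it. With IAA the line difference ran from -0.07 to 0.11 with a median of 0.02, and 13 of 18 probes were higher in the OsTIR1 line (52.3% of 20604 measured probes were). Without IAA it ran from -0.03 to 0.22 with a median of 0.10, and 16 of 18 were higher (50.7% of 19709). Other microRNA probes did likewise, with 56.2% higher with IAA and 89.8% higher without it, where their median was 0.12. The largest let-7 difference was that of gga-let-7g probe A_87_P008556 at 0.22 (-0.18 to 0.62), followed by A_87_P008677 of gga-let-7i at 0.20 (-0.20 to 0.60). No let-7 probe was 2-fold apart between the lines, against 1.56% of measured probes with IAA and 2.18% without it. None was 1.5-fold apart either, against 5.86% and 6.39%.

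The untreated parental array stands in both comparisons that lean upward. It was the lowest of the 4 for 15 of 18 let-7 probes and for 179 of 226 other microRNA probes (79.2%). In every comparison the let-7 median lay within 0.02 of the median of the other microRNA probes. The 7 spike-in probes above background differed by at most 0.07 in any of these comparisons. The lowest intensity flagged as above background was highest on this array. The surface was split into 16 parts, and probes flagged on none of the other arrays were counted in each. This array flagged 11.8% and 11.2% of them in 2 parts and at most 1.89% in any other part. The other arrays were not examined in this way. In these 2 parts lie 2 let-7 probes, A_87_P008676 of gga-let-7i and A_87_P008514 of gga-let-7j. This is 11.1% of the let-7 probes, near the 12.4% of other microRNA probes and 12.2% of all probes that lie there. The part of these features in the low microRNA values was not tested.

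Taking the arrays in pairs, both IAA arrays stood above both untreated arrays in 9 of 18 let-7 probes, against 9.54% of the 19436 probes and 34.1% of other microRNA probes. These 9 were both probes of gga-let-7a and gga-let-7d and 1 each of gga-let-7b, gga-let-7c, gga-let-7f, gga-let-7g and gga-let-7j. None had both IAA arrays below, against 12.2% of all probes and 2.65% of other microRNA probes. The count stayed at 9 with quantile normalization, against 10.6% of all probes and 31.9% of other microRNA probes. With the series-level table it was 9 too (9.52% and 32.7%). Under other settings the count moved, and so did the share over all probes. It was 16 with median scaling, against 40.3% of all probes and 73.0% of other microRNA probes. It was 5 with spike-in scaling (7.99% and 23.9%) and 3 with normexp (9.79% and 30.5%). When arrays were centred on the other microRNA probes it was 3 (2.43% and 8.41%), and 3 more had both IAA arrays below (27.9% and 18.6%). Both OsTIR1 arrays stood above both parental arrays in 6 let-7 probes (30.5% of all probes did) and below them in 1 (26.6%). Of other microRNA probes 37.6% stood above and 1.33% below. Quantile normalization gave 5 and 1, against 29.2% and 27.8% of all probes and 34.1% and 1.77% of other microRNA probes. Normexp gave 6 and 1 (28.2% and 27.9% of all probes, 28.3% and 3.54% of other microRNA probes). The series-level table gave 6 and 1 (31.0% and 26.1%, with 38.9% and 1.33%). Median scaling gave 2 and 0, against 33.3% and 11.9% of all probes and 22.6% and 0% of other microRNA probes. Spike-in scaling gave 10 and 0, against 36.9% and 21.4% of all probes, with 58.8% of other microRNA probes above and 0.885% below. Centring on the other microRNA probes gave 2 and 3, against 17.6% and 34.5% of all probes and 15.9% and 16.4% of other microRNA probes.

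A limma model with additive terms for line and IAA was fitted to 23100 probes, those flagged as above background in 2 or more cultures. It has 1 residual degree of freedom and uses the treatments as repeats of each line and the lines as repeats of each treatment. The line effect of the let-7 probes ran from -0.02 to 0.14 (median 0.06, standard errors 0.07 to 0.09), with 16 of 18 above 0. The IAA effect ran from -0.05 to 0.13 (median 0.07), with 17 of 18 above 0. The share of all fitted probes with an effect above 0 is not given here. In the single differences other microRNA probes leaned upward too. Of 226, 125 and 202 were higher with IAA in the OsTIR1 line and parental DT40. In the OsTIR1 line against parental DT40, 127 and 203 were higher with and without IAA. None of the 18 had an adjusted p under 0.05 for either term in limma with Benjamini-Hochberg adjustment, and none had an unadjusted p under 0.05. With median scaling the IAA effect had a median of 0.20 with 18 of 18 above 0. Under that scaling all measured probes had a median IAA difference of 0.10 in the OsTIR1 line and 0.16 in parental DT40. Of the 226 other microRNA probes, 212 and 224 were higher with IAA in these lines, so the upward lean was not particular to let-7. There 2 let-7 probes had an unadjusted limma p under 0.05 for IAA, where 1839 of all 23100 fitted probes did. The 2 were A_87_P008670 of gga-let-7a at 0.041 and A_87_P008554 of gga-let-7d at 0.0484, with an adjusted p of 0.416 each. With the 75th percentile the lowest limma adjusted p among the 18 was 0.418 for the line and 0.955 for IAA. The same fit called 0 of 23100 probes (0%) for either term, with 4333 at an unadjusted p under 0.05 for the line and 1125 for IAA. Limited to the 19436 probes above background on all arrays it called 910 for the line (4.68%), and none for IAA, where 1098 had an unadjusted p under 0.05. With normexp it called 12.1% for the line and 0.472% for IAA, and with a trend and robust prior 12.9% and 0.0346%. No let-7 probe was among any of these calls. With normexp every let-7 probe had the same standard error, 0.0775, for both terms. For the let-7 probes a call in that setting thus turned on the size of the effect alone. Equal errors of this kind mean that the fit gave all probes a common variance. The calls with normexp over all probes thus turned on effect size too.

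Of the 3 microRNAs listed as cluster partners of let-7 genes in vertebrates, mir-99a, mir-100 and mir-125b, the last 2 have probes. In the chicken assembly the RefSeq locus named gga-mir-125b had no let-7 neighbour within 10000 bases. The gga-mir-100 probes had 444 and 401 units in the OsTIR1 line with IAA and 426 and 398 in that line untreated. They had 422 and 384 units in parental DT40 with IAA and 396 and 381 in parental DT40 untreated. In the same order of probes they were 0.09 and 0.04 higher with IAA in the OsTIR1 line and 0.16 and 0.08 higher with IAA in parental DT40, on the scale of the let-7 differences. Probe A_87_P008664 of gga-mir-125b lay between 264 and 280.0 units on the 4 arrays. Its partner A_87_P008665 had 105 units in parental DT40 with IAA and 271 to 304 on the other arrays, so 1 spot on 1 array set it apart.

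A list of 31 genes of let-7 processing and let-7 targets had 1 member with a named probe, CDK6, the cell cycle kinase gene that let-7 represses in human cells. CDK6 had 3190.2 and 3292 units in the OsTIR1 line with and without IAA and 3411 and 3560.1 units in parental DT40 with and without IAA. Its IAA difference was -0.02 in the OsTIR1 line and 0.01 in parental DT40. It was 0.10 lower in the OsTIR1 line with IAA and 0.07 lower without it, differences of the size seen among let-7 probes. Of 16 B cell marker genes 1 had a named probe, RAG1, which was not well above background on any array. The macrophage gene TLR4 and the liver gene VTG2 were not either. With so few named markers the label of the line could not be checked further.

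Likeness of profile over the 4 arrays was measured as the root mean square difference in log2 level after centring each probe on its own mean, among 267 named probes above background everywhere, of which 244 were microRNA probes and 18 of these let-7. The 3 most similar probes of each let-7 probe made 54 places, of which 5 were let-7 probes, 2 were named genes and the others were microRNAs of other families. The closest match was gga-let-7g probe A_87_P008557 with A_87_P008621 of gga-mir-124a, a neuronal microRNA, at 0.0051. The 2 gga-let-7d probes were each other's neighbours at 0.010. No other pair of partner probes was among these places. Gene matches were ARFGAP2 for A_87_P008676 of gga-let-7i and HSPA2 for A_87_P008513 of gga-let-7k.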

How the data were processed

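The authors hybridised Cy3-labelled total RNA of 4 cultures to one-colour Agilent arrays. The deposited values are spot intensity on a linear scale from Agilent Feature Extraction 10.5.1.1, background-subtracted and detrended within each array, per the file headers, which name galGal2 as the grid's build. Levels were computed as log2 of that intensity minus the array's 75th percentile over non-control probes. Each group is 1 array, so a difference is a value with no test, with 2-fold and 1.5-fold as size rules over probes well above background on both arrays. No let-7 spot was saturated or an outlier. limma 3.58.1 in R 4.3.3 fitted line and IAA to all arrays. The same fit was also run on simulated data, whose outcome is not given here. Probe means came from the real arrays, variances were drawn from the limma prior fitted to them, and line changes were added to 200 probes. Names came from the files and, for 51 probes of 50 genes, from RefSeq accessions. As an alternative, normexp (offset 50) used the spot and background medians, in place of the planned spot means, which were not used here. The 4 cultures are separate samples per the labels. The rule for naming took all let-7 probes, the cluster partners, listed genes with a probe and the 3 nearest profiles of each let-7 probe; other microRNA probes named were chosen after their values were seen. Members and lists were chosen with earlier results of these data known.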

Additional observations from a re-analysis of the deposited data

How the results depend on the processing

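No let-7 probe was 2-fold apart in any comparison under median scaling, quantile normalization, normexp, the series-level table, spike-in scaling or scaling on other microRNA probes, the last 2 added after seeing the data. All 432 let-7 differences so recomputed moved by at most 0.17, and 66 changed sign. The largest move was that of median scaling for IAA in parental DT40, which shifts every probe alike. It is less than the nearly constant nominal half-width, which is no test, but more than the let-7 median in any comparison. Median scaling moved the median of measured probes by 0.10 and 0.17 for IAA in the OsTIR1 line and parental DT40 and by 0.04 and 0.11 for the line with and without IAA. With it the let-7 medians were 0.12, 0.29, 0.06 and 0.21 in the same order, and with scaling on other microRNA probes -0.03, 0.03, -0.02 and 0.02, where the report gives 0.02, 0.12, 0.02 and 0.10. With normexp, 0 probes were 2-fold apart for IAA in the OsTIR1 line and 7 in parental DT40, with 64 and 69 for the line with and without IAA, where the report's settings gave 77, 92, 322 and 429. Without a filter on dim probes the counts were 2921, 3091, 3139 and 13140. Requiring signal on all arrays gave 24 for IAA in the OsTIR1 line. Leaving out the 2 surface parts set apart above by their flagged probes, chosen after seeing the data, gave 45 for IAA in parental DT40. The limma line calls were 0 with the report's settings, 2795 with normexp, 910 with the stricter filter and 2970 with a trend and robust prior, and the IAA calls were 0, with 109 under normexp and 8 under that prior. A change of probe filter or prior left the limma effects themselves as they were, so no sign could change there. Such settings are counted among the 216 recomputed let-7 effects of the fit. Of these 216 effects 9 changed sign, all under another scaling or normalization and none of them called. For the line these were 0.0586 for A_87_P008553 and 0.0586 for A_87_P008513 with median scaling, -0.0025 for A_87_P008670 with quantile normalization, and -0.0773 for A_87_P008514 and 0.0408 for A_87_P008513 with normexp. For IAA they were 0.0835 for A_87_P008669 with median scaling and -0.0209 for A_87_P008553, -0.0088 for A_87_P008677 and -0.0096 for A_87_P008513 with normexp. The mean gap between partner probes moved with normexp to 0.054 for gga-let-7a, -0.13 for gga-let-7c, 0.0825 for gga-let-7d, 0.0895 for gga-let-7i, -0.20 for gga-let-7j, 0.14 for gga-let-7k and -0.03 for gga-let-7b, all with a changed sign except that of gga-let-7d. The causes were not tested. No paired analysis was possible because each group is 1 array, so no replicate numbers pair samples beyond the line and IAA terms of the additive fit, which compares treatments within lines and lines within treatments. The number of arrays limits the precision. The half-width of the nominal interval, nearly the same for every let-7 probe, is wider than every let-7 difference seen.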

Other observations

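Partner probes of other microRNAs show how a single spot can differ. Of the 226 other microRNA probes, 4 were at least 2-fold apart between some 2 arrays, and in each the partner probe of the same name was not. Probe A_87_P008598 of gga-mir-206 had 656 and 687 units in the OsTIR1 line with and without IAA and 233 and 509 in parental DT40 with and without IAA, while its partner lay between 536 and 593. Probe A_87_P008495 of gga-mir-183 had 256 and 264 units in the OsTIR1 line with and without IAA and 231 and 69.7 in parental DT40 with and without IAA, against 265 to 281 for its partner. Probe A_87_P008636 of gga-mir-148a had 382 and 397 units in the OsTIR1 line and 405 and 126 in parental DT40 with and without IAA, against 388 to 440.2 for its partner. The fourth was A_87_P008665 of gga-mir-125b. No outlier flag marked any of these spots. These probes were picked after their values were seen.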
